A study of Mus musculus with 8 samples.

Results

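Polycomb repressive complex 1 (PRC1) is built from alternative subunits, and the 9 genes described here encode its chromobox subunits Cbx2, Cbx6, Cbx7 and Cbx8, its polyhomeotic subunits Phc1, Phc2 and Phc3, the related protein Scmh1 and the DNA-binding partner Kdm2b. They were chosen by name. The array platform's annotation gives them 19 of the 34945 probe sets that carry exactly 1 gene symbol, and 9 of 18193 genes. A probe set is a group of short oligonucleotides on the array that together give 1 signal for a transcript. Each gene was represented by its brightest probe set, and all 9 passed the filter on dim genes, a signal above the array's median on at least 2 arrays. Of the 19 probe sets, 14 passed that filter, 11 were above the median on all 8 arrays and 4 on none.

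The study measured gene expression in CCE cells, embryonic stem (ES) cells of the mouse strain 129/Sv grown with leukemia inhibitory factor, on 8 arrays. A lentivirus brought in a mouse Bmi1 cDNA or, as control, just the vector, and the infected cells were sorted by their eGFP after some passages. The 4 states, with 2 arrays each, were embryoid bodies labelled Bmi1, embryoid bodies carrying the empty vector, ES cells labelled Bmi1 and ES cell controls. These controls joined 1 array of untreated and 1 array of empty vector cells. Embryoid bodies are the aggregates in which ES cells differentiate, and they were harvested after 10 days. The labels name neither the promoter of the vector nor clones, and do not say that replicates came from separate cultures, so the p-values rest on a spread between arrays that may be technical.

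PRC1 puts ubiquitin on histone H2A and compacts chromatin at silenced developmental genes. In its canonical form a CBX protein reads the trimethyl mark that PRC2 leaves on histone H3, and a PHC protein joins complexes into chains through its SAM domain. KDM2B belongs to a non-canonical form and brings it to unmethylated CpG islands through its CXXC zinc finger. In mouse ES cells Cbx7 is known as the main chromobox subunit, and Cbx2 and Cbx8 are known to take over as the cells differentiate.

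The promoters of Cbx6, Cbx7, Phc1 and Phc3 are printed because these genes passed the test between stages in both stage comparisons and have 1 promoter each in the RefSeq promoter table (GRCm38.p6). Each line gives the 250 bases before the transcript start, 5′ to 3′ on the gene's strand, with every CG dinucleotide, which KDM2B's zinc finger recognises when it is unmethylated, in capitals. All 4 genes lie on the minus strand, with windows at chr15:79834334-79834583 (Cbx6), chr15:79932647-79932896 (Cbx7), chr6:122340228-122340477 (Phc1) and chr3:30969416-30969665 (Phc3).
Cbx6: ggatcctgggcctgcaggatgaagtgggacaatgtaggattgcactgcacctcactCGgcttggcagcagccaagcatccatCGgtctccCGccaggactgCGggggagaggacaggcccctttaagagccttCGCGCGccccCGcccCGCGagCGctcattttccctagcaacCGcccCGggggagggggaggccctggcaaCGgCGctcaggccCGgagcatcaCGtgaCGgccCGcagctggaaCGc
Cbx7: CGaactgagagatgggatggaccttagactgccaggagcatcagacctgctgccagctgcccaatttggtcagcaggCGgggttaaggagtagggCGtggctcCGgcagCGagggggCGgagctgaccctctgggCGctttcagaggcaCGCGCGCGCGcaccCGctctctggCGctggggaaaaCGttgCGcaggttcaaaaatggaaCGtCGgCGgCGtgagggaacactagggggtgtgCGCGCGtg
Phc1: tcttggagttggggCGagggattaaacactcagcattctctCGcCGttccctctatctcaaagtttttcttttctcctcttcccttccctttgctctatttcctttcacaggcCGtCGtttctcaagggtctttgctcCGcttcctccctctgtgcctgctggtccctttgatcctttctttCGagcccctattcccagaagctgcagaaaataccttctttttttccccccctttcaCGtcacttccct
Phc3: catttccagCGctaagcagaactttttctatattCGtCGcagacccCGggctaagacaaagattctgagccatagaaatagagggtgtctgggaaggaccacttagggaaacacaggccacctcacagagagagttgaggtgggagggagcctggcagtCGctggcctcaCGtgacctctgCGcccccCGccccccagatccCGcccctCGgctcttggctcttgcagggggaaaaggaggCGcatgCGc

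In these windows the CG dinucleotide occurred 20 times for Cbx6, 23 times for Cbx7, 8 times for Phc1 and 12 times for Phc3. The median over all 32851 promoters of the table was 6. Promoters of 8 of the 9 genes were matched by symbol, 14 in all, and 12 of the 14 held more CG dinucleotides than that median. The highest count, 45, belonged to a promoter of Scmh1, and another Scmh1 promoter had 0. The 3 Phc2 promoters held 13, 1 and 34, the 4 Kdm2b promoters between 12 and 38, and the Cbx8 promoter 22. The Kdm2b windows at chr5:122900351-122900600 and chr5:122900368-122900617 share most of their bases and were counted separately, so the 14 are not independent. The GC box GGGCGG, searched on both strands and overlapping the CG count, was found in 10 of the 14 windows and in 32.7% of all promoters. The octamer ATGCAAAT, also searched on both strands, was found in 1 of the 14, a Phc2 promoter, and in 1.60% of all. Cbx2 and Cbx8 lie on chromosome 11 with 0 protein-coding genes between them in the RefSeq gene table, and Cbx6 and Cbx7 on chromosome 15 with 1 between them.

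**Figure D1:**
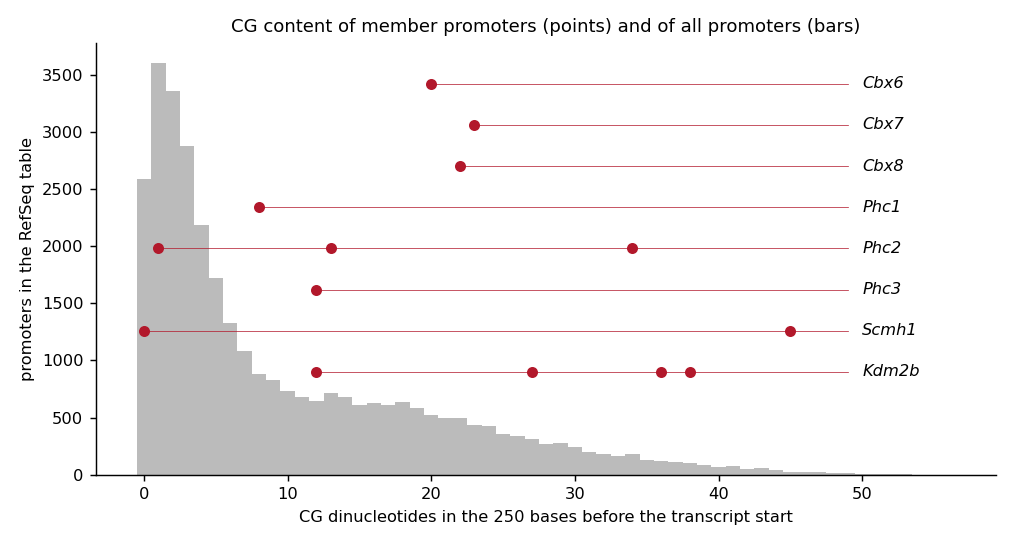
CG dinucleotides in the 250 bases before the transcript start. Grey bars count all 32851 promoters of the RefSeq table (left axis) by their number of CG dinucleotides (horizontal axis), and each red point is 1 of the 14 promoters of 8 genes, in 1 row per gene with the height of a row carrying no value; 12 points lie right of the median of 6, and 1 promoter each of Phc2 and Scmh1 lies at 1 and 0.

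Bmi1, the transduced gene and itself a core PRC1 protein, read against the labels. Its log2 signal in embryoid bodies was 7.48 and 8.51 where labelled Bmi1 and 9.35 and 9.67 with the empty vector, and in ES cells it was 5.68 and 6.28 where labelled Bmi1 and 7.41 and 7.74 in controls. The log2 differences of -1.51 and -1.59 had adjusted p = 0.31 and 0.26, and 0.040 and 0.041 with a block for the embryoid body set. No source used here states whether its probes match the transduced cDNA, so "labelled Bmi1" is written throughout. By their value distributions the arrays formed 3 sets, the replicate 1 embryoid bodies, the replicate 2 embryoid bodies and the 4 ES cell arrays. Stage and set therefore cannot be told apart, while each embryoid body set holds 1 array labelled Bmi1 and 1 vector array. The 10 ES cell markers were above the median on all 8 arrays, and their summed linear signal was 8931 and 18697 in embryoid bodies labelled Bmi1, 7117 and 22262 in vector embryoid bodies, 72409 and 66065 in ES cells labelled Bmi1 and 81986 and 80501 in control ES cells. Heart, endoderm, blood, endothelial and trophoblast marker sums were higher on every embryoid body array than on every ES cell array. The neural sum overlapped between stages, at 461 and 665 in embryoid bodies labelled Bmi1 and 815 and 1524 in vector embryoid bodies, against 1160 to 1272 in ES cells. The gap between the 3′ and 5′ probe sets of actin, a sign of RNA integrity, also moved with stage. It was 0.60 to 0.86 log2 units in embryoid bodies and 0.29 to 0.51 in ES cells. The same gap for Gapdh overlapped between stages, at -0.02 to 0.06 in embryoid bodies and -0.03 to 0.18 in ES cells. The part of either gap in the results was not tested.

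Between the stages the subunits changed in opposite directions. Phc1, Cbx7 and Cbx6 were lower in embryoid bodies than in ES cells, and Phc2, Phc3 and Scmh1 were higher. These 6 of the 9 genes passed limma's test at an adjusted p under 0.05 both in vector embryoid bodies against control ES cells and in embryoid bodies against ES cells labelled Bmi1, and the same 6 were called in both. Stage moved most of the transcriptome: 58.5% of the 12982 genes tested were called in the first comparison, 22.7% higher and 35.8% lower, and 59.2% in the second, 21.2% higher and 38% lower, so 6 of 9 is close to the background. With a block for the embryoid body set 6 and 7 of the 9 were called, against 74.8% and 74.4% of all genes. In these bulk samples fewer cells of a type and less RNA per cell cannot be told apart.

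**Figure D2:**
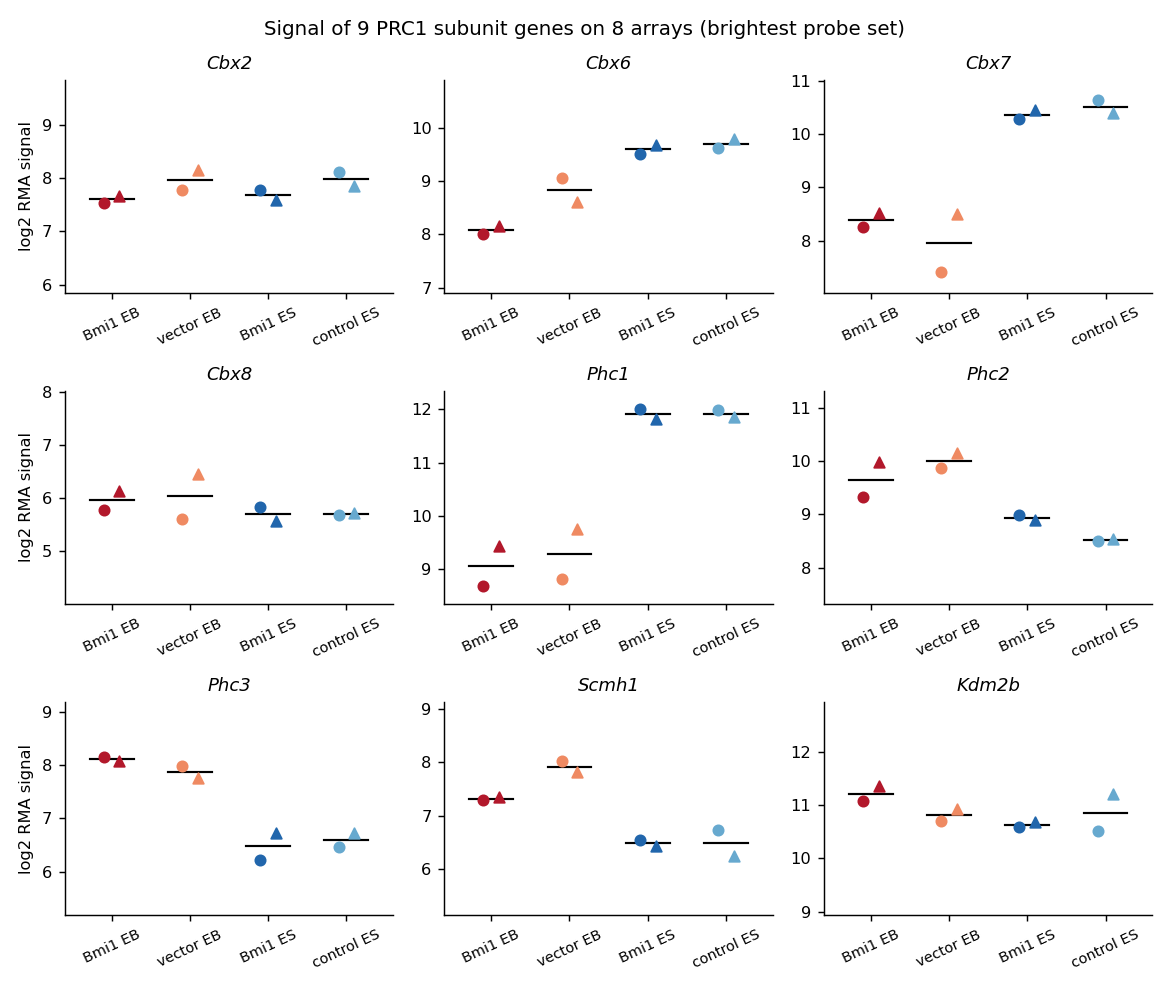
Signal of the 9 genes on 8 arrays, from the brightest probe set of each. Each panel shows log2 RMA signal (vertical axis, each panel spanning the same number of log2 units) for embryoid bodies (EB) labelled Bmi1, vector EB, ES cells labelled Bmi1 and ES cell controls; circles are replicate 1 (untreated cells among the controls), triangles replicate 2 (empty vector cells among the controls), and black lines are group means. Phc1 and Cbx7 lie below the ES cell arrays on all 4 EB arrays, and Phc2, Phc3 and Scmh1 lie above them.

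Cbx7, the chromobox subunit known for holding ES cells in self-renewal, gave log2 signals of 8.26 and 8.52 in embryoid bodies labelled Bmi1, 7.40 and 8.50 in vector embryoid bodies, 10.28 and 10.45 in ES cells labelled Bmi1 and 10.64 and 10.40 in control ES cells. All 4 embryoid body arrays lay below all 4 ES cell arrays. The difference was -2.56 ± 0.34 on the log2 scale in vector embryoid bodies against control ES cells (SE, n = 2 and 2 arrays, adjusted p = 0.00086), a 5.91-fold lower signal. Among samples labelled Bmi1 it was -1.97 ± 0.34 (adjusted p = 0.0026). The Cbx7 probe set next in brightness read the other way, as given below with the single probe sets. With an SD of 0.78, the vector embryoid body arrays lay further apart for Cbx7 than the arrays of any group did for the other 8 genes. The replicate 1 array, with the lower Cbx7 signal, also had the lower sum of ES cell markers, and the part of the markers in the difference was not tested.

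Cbx6, a chromobox subunit that is less studied, gave log2 signals of 8.01 and 8.17 in embryoid bodies labelled Bmi1, 9.06 and 8.60 in vector embryoid bodies, 9.51 and 9.68 in ES cells labelled Bmi1 and 9.62 and 9.79 in control ES cells. Embryoid bodies labelled Bmi1 had the lowest group mean, 8.09 ± 0.11 (SD, n = 2), then vector embryoid bodies at 8.83 ± 0.32, while the 2 ES cell groups, at 9.59 ± 0.12 and 9.70 ± 0.12, overlapped. The log2 difference was -1.50 ± 0.20 between stages labelled Bmi1 (adjusted p = 0.00099) and -0.87 ± 0.20 between vector embryoid bodies and control ES cells (adjusted p = 0.0089). The smaller of these calls was lost after quantile normalization, at -0.39 with adjusted p = 0.29, and without control replicate 2, at -0.78 with adjusted p = 0.068.

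Cbx2 and Cbx8, neighbours on chromosome 11 and the subunits known to replace Cbx7 in differentiating cells, gave no call with their brightest probe sets. Cbx2 gave log2 signals of 7.54 and 7.67 in embryoid bodies labelled Bmi1, 7.78 and 8.15 in vector embryoid bodies, 7.77 and 7.59 in ES cells labelled Bmi1 and 8.11 and 7.85 in control ES cells, so the stages overlapped. Its stage differences were -0.01 (95% interval -0.48 to 0.45) in vector and control samples and -0.08 (-0.54 to 0.39) in samples labelled Bmi1. A second, dimmer Cbx2 probe set read otherwise, with log2 signals of 5.56 and 5.55 in embryoid bodies labelled Bmi1, 6.01 and 6.66 in vector embryoid bodies, 4.02 and 3.76 in ES cells labelled Bmi1 and 4.21 and 4.14 in control ES cells. Its embryoid body arrays all read above its ES cell arrays. It was above the array median on 2 of 8 arrays, both of vector embryoid bodies, and so passed the filter only through the group where it is highest. No test of it is given for that reason, and its ES cell values lie in the dim range.

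Cbx8 gave log2 signals of 5.77 and 6.14 in embryoid bodies labelled Bmi1, 5.61 and 6.46 in vector embryoid bodies, 5.83 and 5.57 in ES cells labelled Bmi1 and 5.68 and 5.73 in control ES cells. It was above the array median on 5 of 8 arrays, the only one of the 9 genes not above it on all 8. The stages overlapped, with differences of 0.33 (95% interval -0.36 to 1.02) in vector and control samples and 0.26 (-0.43 to 0.95) in samples labelled Bmi1. Without vector embryoid body replicate 1 the first was called, at 0.75 with adjusted p = 0.030.

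Phc1, a polyhomeotic subunit, had the largest stage difference of the 9 genes. Its log2 signals were 8.68 and 9.43 in embryoid bodies labelled Bmi1, 8.82 and 9.75 in vector embryoid bodies, 12.01 and 11.81 in ES cells labelled Bmi1 and 11.98 and 11.85 in control ES cells. No embryoid body array came within 2 log2 units of an ES cell array. The difference was -2.85 ± 0.35 in samples labelled Bmi1 (adjusted p = 0.00072) and -2.63 ± 0.35 between vector embryoid bodies and control ES cells (adjusted p = 0.00090), which is 7.23-fold and 6.20-fold lower. In both embryoid body groups the replicate 2 array had more Phc1 signal and also the higher sum of ES cell markers, and the part of the markers was not tested.

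Phc2 and Phc3, the other polyhomeotic subunits, moved the other way. Phc2 gave log2 signals of 9.32 and 9.98 in embryoid bodies labelled Bmi1, 9.87 and 10.15 in vector embryoid bodies, 8.98 and 8.90 in ES cells labelled Bmi1 and 8.49 and 8.54 in control ES cells. The embryoid body groups overlapped, both lay above the labelled Bmi1 ES arrays, and the control ES arrays were lowest. Phc2 was higher in vector embryoid bodies than in control ES cells by 1.49 ± 0.24 (adjusted p = 0.0019) and in the samples labelled Bmi1 by 0.71 ± 0.24 (adjusted p = 0.037). The smaller call was lost with a smaller difference under median centring (0.36, adjusted p = 0.26), with the mean of the probe sets (0.27, adjusted p = 0.32) and without embryoid body replicate 2 labelled Bmi1 (0.38, adjusted p = 0.16). It was also lost without ES cell replicate 1 or 2 labelled Bmi1, at 0.75 and 0.67 (adjusted p = 0.11 and 0.15). Without either control ES cell array the difference was still 0.71, with adjusted p = 0.068 for both. Without embryoid body replicate 1 labelled Bmi1 it was 1.04 (adjusted p = 0.010). The other Phc2 probe set gave 0.41 ± 0.24 in vector and control samples and -0.16 ± 0.24 in samples labelled Bmi1, neither of them called without a block. Its adjusted p in limma with a block for the embryoid body set was 0.026 and 0.29, so the first was then called higher.

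Phc3 gave log2 signals of 8.15 and 8.07 in embryoid bodies labelled Bmi1, 7.99 and 7.77 in vector embryoid bodies, 6.22 and 6.72 in ES cells labelled Bmi1 and 6.47 and 6.74 in control ES cells. Every embryoid body array exceeded every ES cell array by over 1 log2 unit, and the ES cell groups overlapped. It was higher by 1.63 ± 0.22 in embryoid bodies labelled Bmi1 (adjusted p = 0.00094) and by 1.28 ± 0.22 in vector embryoid bodies (adjusted p = 0.0024), each against its own ES cells.

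Scmh1, a Polycomb protein with MBT repeats and a SAM domain like that of the PHC proteins, gave log2 signals of 7.30 and 7.34 in embryoid bodies labelled Bmi1, 8.03 and 7.81 in vector embryoid bodies, 6.55 and 6.43 in ES cells labelled Bmi1 and 6.72 and 6.24 in control ES cells. Vector embryoid bodies stood highest, then embryoid bodies labelled Bmi1, and the 2 ES cell groups overlapped below. The rise was 1.44 ± 0.21 in vector embryoid bodies against control ES cells (adjusted p = 0.0011) and 0.83 ± 0.21 between stages labelled Bmi1 (adjusted p = 0.011). The second call was lost with median centring, at 0.48 with adjusted p = 0.079, and without ES cell replicate 2 labelled Bmi1, at 0.77 with adjusted p = 0.071. Its other 2 probe sets did not pass the filter.

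Kdm2b, the CpG-binding partner of the non-canonical complex, gave log2 signals of 11.08 and 11.35 in embryoid bodies labelled Bmi1, 10.70 and 10.93 in vector embryoid bodies, 10.58 and 10.68 in ES cells labelled Bmi1 and 10.52 and 11.20 in control ES cells. Both embryoid body arrays labelled Bmi1 exceeded both ES cell arrays labelled Bmi1, whereas vector embryoid bodies lay within the range of the 2 control ES cell arrays. The stage difference was 0.59 ± 0.25 in samples labelled Bmi1, with adjusted p = 0.081, and 0.042 with a block for the embryoid body set, and -0.04 ± 0.25 in vector and control samples (adjusted p = 0.89). These values depended on scaling: quantile normalization gave 1.46 (adjusted p = 0.0021) and 0.78 (adjusted p = 0.022). The other Kdm2b probe set was at -0.74 ± 0.36 and -0.92 ± 0.36 in the same 2 comparisons, opposite in sign to the brightest one in the first. It was not called in the fit without a block. Its adjusted p in limma with the block was 0.051 and 0.022, so it was then called lower in vector and control samples.

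**Figure D3:**
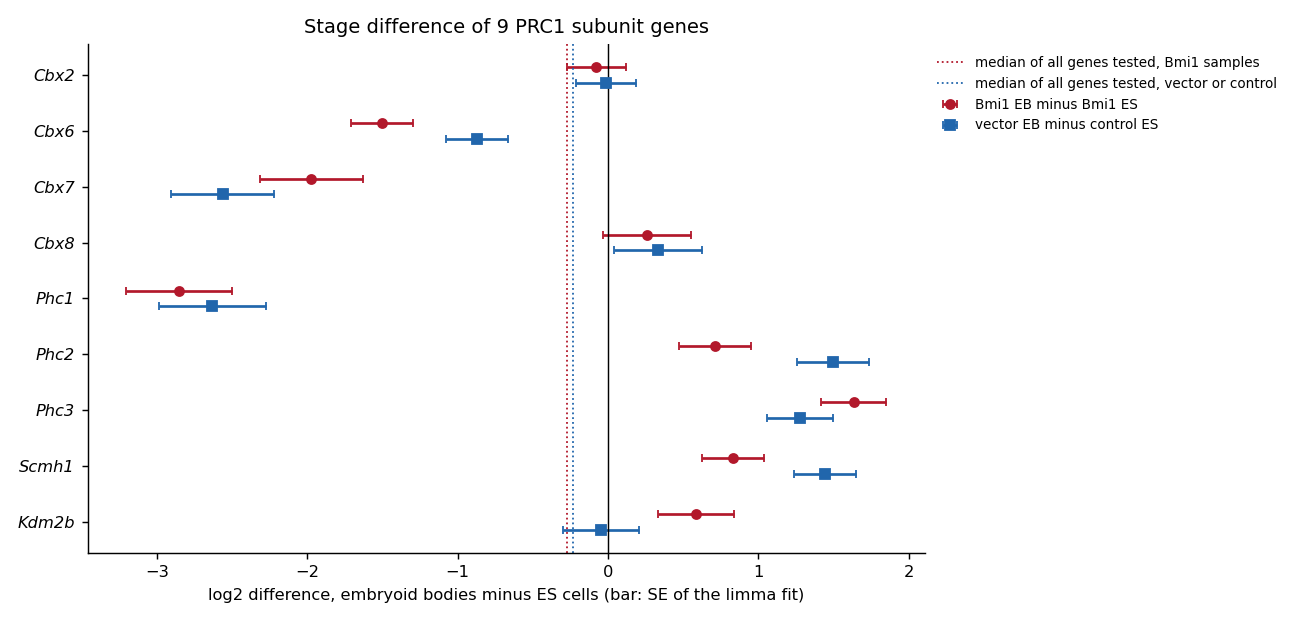
Stage difference of each gene. Points are log2 differences, embryoid bodies (EB) minus ES cells, and bars are the SE of the limma fit (n = 2 and 2 arrays), with red circles for samples labelled Bmi1 and blue squares for vector EB against control ES cells; dotted lines mark the median of all 12982 genes tested, -0.27 and -0.24. Phc1, Cbx7 and Cbx6 lie left of those lines and Phc2, Phc3 and Scmh1 right of 0.

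The stage difference of all genes was not centred on 0. Its median was -0.24 in vector and control samples and -0.27 in samples labelled Bmi1, against -0.04 and -0.03 after quantile normalization and -0.56 and -0.62 after median centring. Higher calls made up 38.8% and 35.8% of all calls in the deposited values, 48.9% and 47.5% after quantile normalization and 26.6% and 22.8% after median centring. Taken relative to the median of all genes, Phc1 stood at -2.40 and -2.58, Cbx7 at -2.33 and -1.70 and Cbx6 at -0.64 and -1.23, for the vector and control and the labelled Bmi1 comparison in turn. Phc2 stood at 1.73 and 0.98, Phc3 at 1.51 and 1.91 and Scmh1 at 1.68 and 1.10 in the same terms. The signs of these 6 genes were the same under all 3 scalings, with and without the median taken off. The differences of Cbx2, Cbx8 and Kdm2b flipped in sign under at least 1 other scaling. Relative to the median of all genes Cbx2 and Kdm2b kept a positive sign under all 3 scalings in both comparisons, and Cbx8 flipped in samples labelled Bmi1, at 0.53 in the deposited values and -0.07 after quantile normalization. The median absolute difference was 1.28 and 0.83 over the 9 genes, against 0.82 and 0.82 over all genes tested.

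Over the single probe sets, 4 of the 14 tested were higher and 3 lower in vector embryoid bodies against control ES cells, where 22.1% of all 22951 probe sets were called higher and 33% lower, 55.1% in all. Among samples labelled Bmi1, 4 were higher and 4 lower, against 20.9% and 34.8% of all, 55.7% together. The second Cbx2 probe set, which passed the filter only in vector embryoid bodies, is 1 of the 4 higher in each. The dimmer Cbx6 probe set had the sign of the brighter one, at -0.70 ± 0.26 in vector and control samples (adjusted p = 0.051, not called) and at -1.28 ± 0.26 in samples labelled Bmi1 (adjusted p = 0.0052). The first was called in limma with a block for the embryoid body set (adjusted p = 0.010). The probe sets of Cbx7 parted: the one next in brightness gave 0.52 ± 0.20 and 0.43 ± 0.20 (adjusted p = 0.057 and 0.10), opposite to the brightest. With a block for the embryoid body set in limma its adjusted p was 0.020 and 0.043, so it was called higher in both. Which transcripts of a gene each probe set reads was not analysed here. By the platform's naming, the brightest Phc2 probe set (suffix _x_at) holds probes that can match other sequences. The brightest of Cbx6 and of Kdm2b and the Cbx7 one next in brightness (suffix _s_at) can read more than 1 transcript or gene. The brightest of Scmh1 (suffix _a_at) reads alternative transcripts of the gene.

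**Figure D4:**
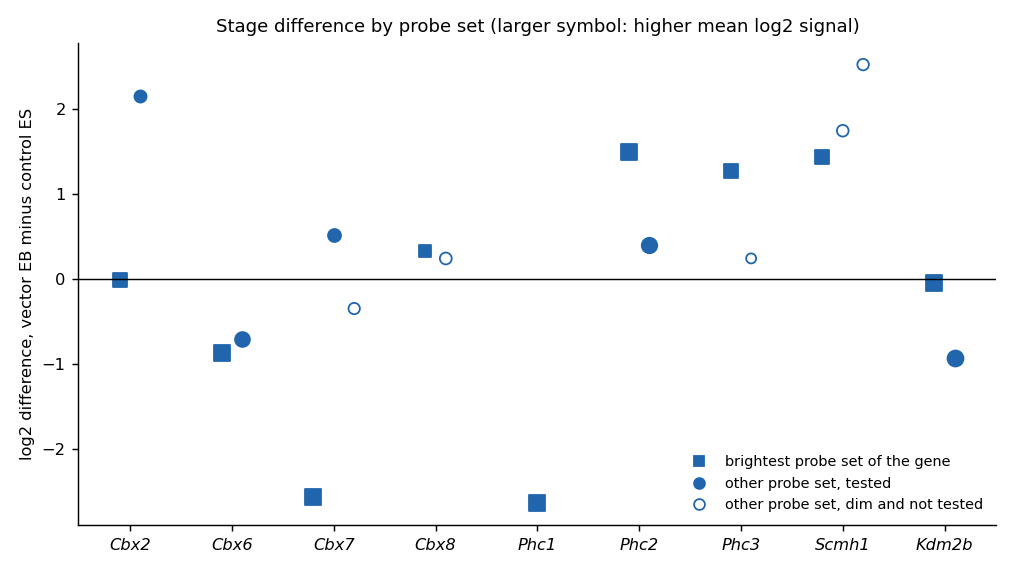
Stage difference of all 19 probe sets in vector embryoid bodies minus control ES cells (vertical axis, log2 units), by gene. Squares are the brightest probe set of each gene, filled circles other probe sets that were tested and open circles dim ones that were not, with larger symbols for a higher mean signal; the tested probe sets of Cbx7 lie on both sides of 0, and those of Phc2 lie at 0.41 and 1.49 and those of Kdm2b at -0.92 and -0.04. The upper Cbx2 point belongs to the probe set that was above the array median in vector embryoid bodies alone.

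Samples labelled Bmi1 were next set against their controls at each stage. In embryoid bodies the 9 genes differed by between -0.74 and 0.44 log2 units, and limma called 0 of 9, where 0.139% of all 12982 genes were called. Cbx6 had the largest difference, -0.74 ± 0.20 (95% interval -1.22 to -0.26), then Scmh1, at -0.60 ± 0.21 (-1.09 to -0.12), and these 2 of the 9 had an unadjusted p under 0.05, against 7.06% of all genes. Their adjusted p was 0.37 and 0.54, and 0.080 and 0.13 with a block for the embryoid body set, so neither passed. With that block 0 of 9 were called, against 2.09% of all genes. Within the replicate 1 and the replicate 2 set the difference was -1.05 and -0.44 for Cbx6 and -0.73 and -0.47 for Scmh1.

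The arrays labelled Bmi1 did not overlap the vector arrays for 5 of the 9 genes, against 25.2% of all genes. Cbx6, Scmh1 and Cbx2 were lower on both arrays labelled Bmi1, as were 14.4% of all genes, and Phc3 and Kdm2b higher, as were 10.8%. The sign was the same in both sets for 8 of 9 genes, all but Cbx8, against 61.7% of all genes. Cbx2 was at -0.36 ± 0.20. Phc2 was at -0.36 ± 0.24, Phc1 at -0.23 ± 0.35 and Cbx8 at -0.08 ± 0.29, while Cbx7 was at 0.44 ± 0.34, Kdm2b at 0.40 ± 0.25 and Phc3 at 0.23 ± 0.22. For Cbx7 the value came from 1 set, with 0.85 between the replicate 1 arrays and 0.02 between the replicate 2 arrays. The median difference was -0.23 over the 9 genes and -0.04 over all genes tested. Marker sums moved with the label too. On both arrays labelled Bmi1 the 7 heart markers summed to more linear signal, 6732 and 7267 against 3674 and 5025 in vector embryoid bodies, as did the 6 measured trophoblast markers, 2028 and 2042 against 757 and 953. Blood (1557 and 2399 against 4534 and 5090), endothelial (1060 and 1170 against 1934 and 1931) and neural sums (461 and 665 against 815 and 1524), over 7 markers each, were lower on both. By group means of single markers, 5 heart markers were higher with the label and 2 lower. Of the 4 trophoblast markers that passed the filter, 3 were higher and 1 lower. Among blood markers 6 were lower and 1 higher, and all 7 neural and all 6 tested endothelial markers were lower. The endoderm sums overlapped, and the part of these shifts in the 9 genes was not tested.

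**Figure D5:**
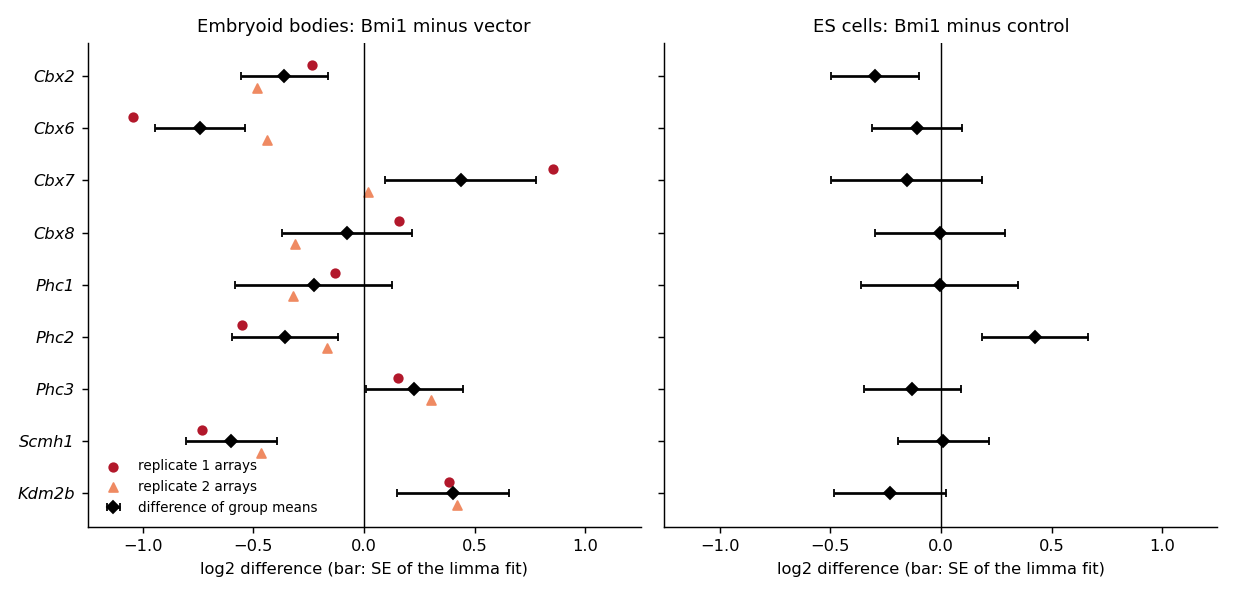
Difference between samples labelled Bmi1 and their controls, in embryoid bodies (left) and ES cells (right), in log2 units (horizontal axis). Black diamonds are differences of group means with the SE of the limma fit (n = 2 and 2 arrays), and in the left panel circles and triangles are the differences within the replicate 1 and replicate 2 arrays. Cbx6 and Scmh1 lie left of 0 in both embryoid body sets, at -1.05 and -0.44 and at -0.73 and -0.47, and no gene passed adjustment.

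In ES cells the 9 genes differed by between -0.30 and 0.43 log2 units, and limma called 0 of 9, where 0.0462% of all genes were called. At an unadjusted p under 0.05 there were 0 of 9, against 6.29% of all genes, and with a block for the embryoid body set 0 of 9, against 1.66%. Phc2 was at 0.43 ± 0.24 (95% interval -0.14 to 0.99) and Cbx2 at -0.30 ± 0.20 (-0.76 to 0.17), and these 2 of 9 genes were the ones whose arrays did not overlap, against 45.6% of all genes. Kdm2b was at -0.23 ± 0.25, Cbx7 at -0.15 ± 0.34, Phc3 at -0.13 ± 0.22 and Cbx6 at -0.11 ± 0.20. Scmh1 (0.01 ± 0.21), Phc1 (-0.01 ± 0.35) and Cbx8 (0.00 ± 0.29) had means closest to each other. The 95% interval for Scmh1 ran from -0.47 to 0.50 log2 units, so changes of that size are not resolved by these arrays.

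Whether the difference labelled Bmi1 depended on stage was tested with the interaction of stage and label, which is equally the test of whether the stage differences of the 2 comparisons were unequal. It called 0 of 9 genes and 0% of all genes, and 0 of the 9 had an unadjusted p under 0.05, against 6.83% of all genes. The largest values were -0.78 ± 0.34 for Phc2 (adjusted p = 0.75), which was 0.71 higher in embryoid bodies among samples labelled Bmi1 and 1.49 higher among the others, and 0.63 ± 0.36 for Kdm2b, -0.63 ± 0.29 for Cbx6 and -0.61 ± 0.29 for Scmh1. With a block for the embryoid body set 0 of 9 were called, against 0.824% of all genes, and the lowest adjusted p was 0.10, for Phc2.

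The other Polycomb genes were taken as a list of 40, Bmi1 among them, of which 39 had a named probe set and 38 were tested. In vector embryoid bodies against control ES cells 9 were higher and 15 lower, 63.2% called, with a median difference of -0.36. In embryoid bodies against ES cells labelled Bmi1 10 were higher and 15 lower, 65.8% called, with a median of -0.46. Both shares are near those of all genes. Yaf2, a partner of the RING subunits in non-canonical PRC1, was higher by 2.97 ± 0.22 and 1.88 ± 0.22 in these comparisons. Scml2, an MBT protein related to Scmh1, is among the higher genes counted above. It was above the array median only in vector embryoid bodies, where it is highest (6.49 and 6.20), so no test of it is given. Its other log2 signals were 5.71 and 5.88 in embryoid bodies labelled Bmi1 and 4.13 to 4.52 in ES cells. Auts2, a non-canonical PRC1 subunit known from neurons, was higher by 1.77 ± 0.24 and 1.11 ± 0.24, and Pcgf5, an alternative to Bmi1 in the complex, by 1.02 ± 0.20 and 1.48 ± 0.20. Eed, the PRC2 subunit that binds the mark its own complex makes, fell by 2.21 ± 0.26 and 1.89 ± 0.26 on the log2 scale. Bap1, the enzyme that removes the ubiquitin set by PRC1, fell by 1.66 ± 0.18 and 1.65 ± 0.18. Asxl2, its cofactor, was at -1.89 ± 0.22 and -1.39 ± 0.22, and L3mbtl2, of a non-canonical PRC1, at -2.25 ± 0.33 and -2.46 ± 0.33. Apart from Scml2, each of these genes was called in both comparisons. In neither comparison of samples labelled Bmi1 with their controls was a gene of the list called, though with a block for the embryoid body set 2 of 38 were called in embryoid bodies and 3 of 38 in ES cells, against 2.09% and 1.66% of all genes. The 1 lower gene at each stage was Bmi1 itself. The higher ones, named after their values were seen, were Ezh1 in embryoid bodies and Yaf2 and E2f6 in ES cells.

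Likeness to the 6 called genes was measured as the root mean square difference of log2 values centred on each gene's mean over the 8 arrays, which share the sets and stages above. Nearest to Phc1 were Dkc1, at 0.078 log2 units, and Akap12, at 0.091, and nearest to Cbx7 were Rbm47, at 0.10, and Eef1e1, at 0.11. For Cbx6 they were Brk1 (0.11) and Pgap6 (0.16), for Phc2 Tmem131l (0.11) and Pik3r1 (0.11), for Phc3 Golga1 (0.11) and Mbd2 (0.12), and for Scmh1 Podxl2 (0.12) and Nfatc1 (0.12). Of the 9 genes, Scmh1 was the nearest to Phc2, at 0.29 log2 units, and Cbx7 the nearest to Phc1, at 0.37. Of all genes tested, 2.80% were nearer to Phc2 than Scmh1 was, and 2.94% were nearer to Phc1 than Cbx7 was. Taken from Scmh1 and from Cbx7, these shares were 2.77% and 4.55%. For Phc3 the nearest of the 9 was Scmh1, at 0.42, with 9.22% of genes nearer. For Cbx6 it was Cbx2, at 0.64, with 48.5% of genes nearer.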

How the data were processed

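Total RNA was hybridised to 8 Affymetrix arrays. The authors deposited log2 values. The submitters' processing notes name RMA, without a version. RMA subtracts background, equalises arrays processed together and summarises each probe set. The 3 sets of distributions do not look like 1 such run, which touches the stage comparisons most. No genome build applies to these values.

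Of 45037 probe sets besides 64 array controls, 34945 had 1 symbol in the platform annotation, 932 several and 9160 none, and 0 symbols changed when checked by gene number. A gene took its brightest one-symbol probe set (18193 genes), and 12982 genes passed the filter. In R 4.3.3, limma 3.58.1 fitted 1 linear model of the 4 states, which left 4 residual degrees of freedom, or 3 with a block for the embryoid body set. Tests were two-sided, with Benjamini-Hochberg adjustment over all genes tested and a threshold of 0.05. SEs and 95% intervals are those of the moderated fit. The fits were tested on simulated data. Promoters were searched with Python 3.11.15. The number of arrays limits the precision.

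All 9 genes were named with every probe set, and Bmi1 as the transduced gene. Further names were up to 3 called genes of the Polycomb list in each direction by smallest p, the HP1 chromobox genes and the 2 nearest genes by likeness. The genes, lists and tests were chosen with earlier results of these data known. The replicate numbers were checked for pairing by correlating deviations from group means over all genes tested: r was 0.72 between the embryoid body groups, and 0.027 and 0.038 between either of them and ES cells labelled Bmi1. The numbers were therefore used as a block for the embryoid body sets only. Alternatives covered the filter, the choice of probe set, scaling, the prior, both blocks, the arrays in the fit and leaving out each array. A fit that left 1 array in a group assumed that it varies like the others.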

Additional observations from a re-analysis of the deposited data

How the results depend on the processing

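Of 763 differences of the 9 genes under alternatives, 707 kept direction and side of the threshold and 42 changed sign. With the sign kept, 11 lost and 3 gained a call. Some of the 42 also gained a call. In both comparisons with the label Bmi1 and in their interaction, 0 of the 9 genes were called under every alternative run. Between stages 5 to 7 were called in vector and control samples and 4 to 7 in samples labelled Bmi1. The number of all 12982 genes called moved too, from 5249 to 8238 and from 5203 to 8434 without 1 array, and 9712 and 9657 with the set as a block.

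In vector embryoid bodies against control ES cells the sign changed with the mean of probe sets for Cbx2 (1.07). With quantile normalization it changed for Cbx2 (0.14), Cbx8 (-0.039) and Kdm2b (0.78). In the same comparison among samples labelled Bmi1 it changed with the mean of probe sets for Cbx2 (0.79, adjusted p = 0.013) and Kdm2b (-0.074), with quantile normalization for Cbx2 (0.049) and Cbx8 (-0.10), and with median centring for Cbx8 (-0.088). In ES cells it changed with the mean of probe sets for Cbx7 (0.10), with quantile normalization for Cbx8 (0.0023) and Scmh1 (-0.0023) and with median centring for Cbx8 (0.011) and Phc1 (0.0088). The mean of probe sets averages probe sets of opposite sign for Cbx2, Cbx7 and Kdm2b. The Cbx2 means take in its second probe set, which passed the filter only through vector embryoid bodies, so no test of them is given. Median centring shifts all genes of a comparison by the same amount. Why quantile normalization changed signs was not tested.

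Leaving out 1 array at a time changed further signs. Labelled Bmi1 minus vector in embryoid bodies ranged from -0.11 to 0.99 for Cbx7, -0.50 to 0.35 for Cbx8 and -0.70 to 0.24 for Phc1. In ES cells the range was -0.13 to 0.12 for Cbx8, -0.57 to 0.11 for Kdm2b, -0.10 to 0.094 for Phc1, -0.38 to 0.12 for Phc3 and -0.23 to 0.25 for Scmh1. The interaction ranged from -0.25 to 0.12 for Cbx2, -0.50 to 0.35 for Cbx8 and -0.69 to 0.25 for Phc1. Vector embryoid bodies minus control ES cells ranged from -0.20 to 0.17 for Cbx2, -0.092 to 0.75 for Cbx8 and -0.39 to 0.30 for Kdm2b. Embryoid bodies minus ES cells labelled Bmi1 ranged from -0.17 to 0.013 for Cbx2.

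The number of genes called in embryoid bodies labelled Bmi1 against vector was 18, and 11 over every probe set, 6 with median centring, 2 with a filter at the 75th percentile, 3 with trend and robust prior, 0 with embryoid body arrays alone, 271 with the set as a block and 0 to 213 without 1 array, the most without vector replicate 2. In ES cells it was 6, and 0 over every probe set, 3 with the mean of probe sets, 0 with quantile normalization, 142 with ES cell arrays alone, 216 with the set as a block and 0 to 53 without 1 array, the most without vector embryoid body replicate 1 (53) or 2 (52). The interaction called 0, but 1 with the mean of probe sets, 107 with the set as a block and 0 to 99 without 1 array, the most without vector embryoid body replicate 2. Over every probe set 12653 and 12774 were called between stages, against 7593 and 7688 genes. A replicate block over the 6 numbered arrays called 61 in embryoid bodies and 30 in ES cells, and 0 of the 9 genes in either.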

Other observations

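The HP1 chromobox genes Cbx1, Cbx3 and Cbx5 share the chromodomain fold with the Polycomb chromobox genes but read another histone mark, that of constitutive heterochromatin. Cbx1 gave log2 signals of 9.85 and 10.54 in embryoid bodies labelled Bmi1, 10.09 and 10.54 in vector embryoid bodies, 11.99 and 11.84 in ES cells labelled Bmi1 and 11.91 and 11.93 in control ES cells. All its embryoid body arrays lay below all its ES cell arrays, by -1.60 ± 0.27 in vector and control samples and -1.72 ± 0.27 in samples labelled Bmi1 (SE, n = 2 and 2 arrays, called by limma in both). Cbx5 fell by 1.52 ± 0.26 and 1.73 ± 0.26 on the log2 scale in the same comparisons, also called in both. Cbx3 lay near the array median, above it on all 4 ES cell arrays and on 1 embryoid body array, replicate 1 labelled Bmi1. It passed the filter mainly through the stage where it is higher, so no test of it between stages is given. Its log2 signals were 6.02 and 5.57 in embryoid bodies labelled Bmi1 and 5.54 and 5.52 in vector embryoid bodies. In ES cells they were 6.05 and 6.38 where labelled Bmi1 and 6.24 and 6.27 in controls. Between samples labelled Bmi1 and their controls 0 of the 3 genes were called at either stage.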
